A study of Mus musculus with 3 samples.

Results

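The 10 genes described here encode proteins that damp MAP kinase signalling, or the mRNAs it induces, and that are themselves induced by it. They are the dual-specificity phosphatases Dusp1, Dusp4, Dusp5 and Dusp6, the Sprouty and Spred proteins Spry1, Spry2, Spry4 and Spred1, and the mRNA-decay factors Zfp36 and Zfp36l1. They were chosen by name and matched by Entrez gene ID, and all 10 were found among the 16621 gene IDs of the deposited tables. The RNA was from stem cells derived from the tail tendon of C57BL/6 mice aged 10 weeks, cultured without treatment and collected at passage 4, when confluent, in medium with fetal bovine serum. There was 1 library of wild-type cells (WT) and 2 libraries of cells carrying the ΔF508 mutation of Cftr (DF508), the anion channel gene altered in cystic fibrosis. Nothing in the labels tells if the DF508 libraries stem from different animals or cultures, and the p-values therefore reflect a spread that may be technical. With 1 WT library, genotype cannot be told apart from any other way in which that culture differed.

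In MAP kinase cascades, growth factor receptors act through Ras and Raf to activate the kinase ERK, while stress signals activate the related kinases p38 and JNK. These kinases induce immediate early genes within minutes, and among those genes are their own inhibitors. The Dusp proteins remove phosphate from the kinases, Sprouty and Spred proteins act upstream between receptor, Ras and Raf, and the Zfp36 proteins bind AU-rich elements of short-lived mRNAs and speed their decay.

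The DF508 libraries held about as much of the Sprouty and Spred transcripts as WT or more, and less of the 2 feedback transcripts with the highest FPKM in WT (fragments scaled to transcript length and library size). Dusp1 and Zfp36 fell to about 0.52 and 0.537 of their WT level, with the counts of both DF508 libraries pooled. Zfp36l1 and Dusp5 were lower than WT in each DF508 library without passing the test, at 0.763 and 0.718 of WT. Spry4 and Spred1 were higher than WT in each DF508 library without passing, at 1.4 and 1.21 of WT. Dusp6, Spry1 and Spry2 had values of 0.986, 0.996 and 1.07 of WT, and Dusp4 was near the limit of detection.

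Of the 10 genes, 9 passed the filter on low counts and entered the test across genes (edgeR's quasi-likelihood test, Benjamini-Hochberg adjusted over 12888 genes, threshold 0.05), and Dusp4 did not. Of these 9, 2 fell, none rose and 7 did not pass; over all genes tested, 0.900% fell and 0.489% rose. The median log2 fold change was -0.06 for the 9 genes and 0.01 for all genes tested. By level alone, 4 of the 9 were below WT in both DF508 libraries, where 29.6% of genes averaging at least 1 CPM (the count scaled to library size) were, and 3 were above in both, where 43.2% were. Of these 3, Spry2 was barely above WT in DF508 replicate 1, at 39.3 CPM in each. With the scaling of the fit, that library alone gave it a log2 fold change of -0.04. Since the genes were chosen with earlier results of these data known, these counts of genes are descriptions. Both DF508 libraries were at least 1.2-fold below WT for 4 of the 9 (8.97% of all genes), at least 1.5-fold for 2 (2.55%), and at least 2-fold for none (0.680%). None of the 10 genes shared reads with another gene, as judged by whole-number estimates in every library.

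**Figure D1:**
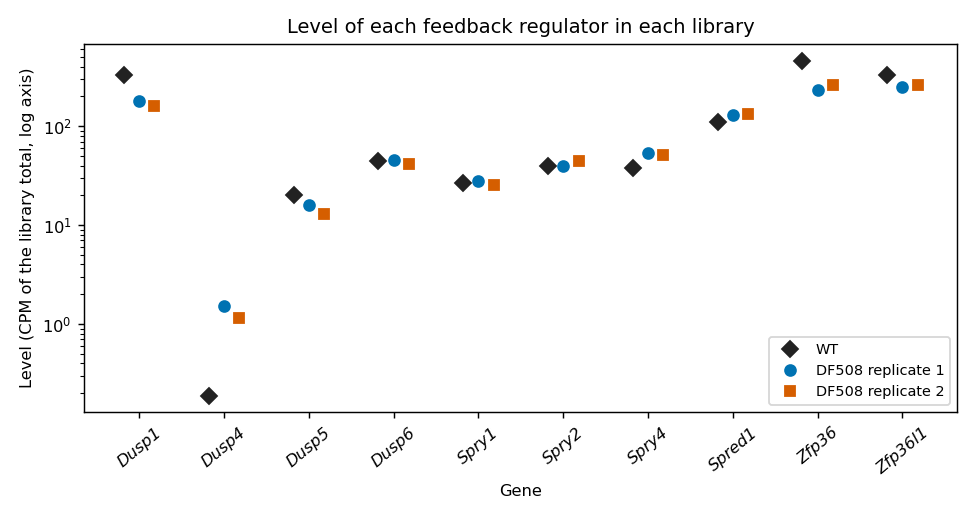
Level of each gene in each library, in CPM of the library total on a log axis; each point is 1 library. Zfp36 and Dusp1 stand at 459 and 328 CPM in WT (black diamonds) and between 160 and 261 CPM in the DF508 libraries (circles and squares), and Dusp4 lies at 0.189 to 1.53 CPM.

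Dusp1 (gene ID 19252), a nuclear phosphatase that acts on p38, JNK and ERK, was the most abundant of the 4 phosphatases. It had 1739 counts in WT, 948 in DF508 replicate 1 and 841 in replicate 2, which is 328, 181 and 160 CPM. Both DF508 libraries lay well below WT, and close to each other. The ratio to WT was 0.551 in replicate 1 (exact 95% interval 0.509 to 0.597) and 0.488 in replicate 2 (0.449 to 0.531); these intervals, like all on ratios here, cover counting error only. The fitted fold was 1.98-fold lower (log2 fold change -0.99 ± 0.11 SE, edgeR adjusted p = 0.00813). Replicate 2 stood at 0.886 of replicate 1 (0.807 to 0.974), a log2 difference of -0.17, against log2 differences from WT of -0.86 and -1.03. The FPKM, which scales for transcript length, was 168.87, 93.07 and 82.46.

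Dusp5 (gene ID 240672), a nuclear phosphatase selective for ERK, was lower by a smaller amount. Its counts were 107, 84 and 68, or 20.2 CPM in WT and 16 and 13 CPM in DF508 replicates 1 and 2. The WT value was the highest, and the interval of the ratio reached past 1 for replicate 1 (0.794, 0.589 to 1.07) but not for replicate 2 (0.642, 0.466 to 0.878). The log2 fold change was -0.52 ± 0.23 (SE) and did not pass (edgeR adjusted p = 0.42).

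Dusp6 (gene ID 67603), the cytoplasmic phosphatase selective for ERK and a widely used readout of ERK activity, had 233, 239 and 216 counts, or 44, 45.6 and 41.2 CPM. The WT value lay between those of the DF508 libraries. The pooled DF508 counts stood at 0.986 of WT, with an interval of 0.841 to 1.16, and the log2 fold change was -0.06 ± 0.14 (SE, edgeR adjusted p = 0.913).

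Dusp4 (gene ID 319520), another nuclear phosphatase, had 1 count in WT, 8 in DF508 replicate 1 and 6 in replicate 2. The WT count was below the 3 counts that a listed 0 allows. The ratio of the DF508 libraries together to WT was 7.07 with an interval of 1.08 to 299, so the depth leaves its size unsettled.

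The 4 phosphatases together gave an FPKM of 202 in WT and of 124 and 109 in DF508 replicates 1 and 2. Dusp1 made up 83.5% of that sum in WT and 75.1% and 75.7% in the DF508 libraries.

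Among the inhibitors that act near the receptor and Ras, Spry4 (gene ID 24066), a Sprouty protein induced by growth factors, was the one with the largest difference. It had 198 counts in WT and 279 and 270 in the DF508 libraries, or 37.4, 53.2 and 51.5 CPM. Both DF508 values were above WT, at ratios of 1.42 (1.18 to 1.72) and 1.38 (1.14 to 1.66), and near each other. The log2 fold change of 0.44 ± 0.13 (SE) did not pass over all genes (edgeR adjusted p = 0.208).

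Spred1 (gene ID 114715), which binds neurofibromin and limits Ras, had 576, 681 and 704 counts, or 109, 130 and 134 CPM. Both DF508 libraries were again above WT, with ratios of 1.2 (1.07 to 1.34) and 1.23 (1.1 to 1.38), and the log2 fold change was 0.24 ± 0.11 (SE, edgeR adjusted p = 0.435). It was the sole gene of the 10 with more than 1 transcript in the tables, and its estimated mean length was 6249.84 bases in WT and 6319 and 6209.67 bases in DF508 replicates 1 and 2, so WT lay between the mutant libraries.

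Spry1 (gene ID 24063) and Spry2 (gene ID 24064), Sprouty proteins that act on the same receptor pathways, varied little. Spry1 had 26.6 CPM in WT and 27.7 and 25.3 CPM in DF508 replicates 1 and 2 (log2 fold change -0.05 ± 0.19 SE, edgeR adjusted p = 0.951). Spry2 had 39.3, 39.3 and 44.4 CPM (0.05 ± 0.15 SE, edgeR adjusted p = 0.939). At this depth the counting intervals of their pooled DF508 to WT ratios ran from 0.81 to 1.23 for Spry1 and from 0.902 to 1.26 for Spry2. Ratios within those bounds are compatible with the counts, and variation between cultures is not covered. The 4 Sprouty and Spred genes together gave an FPKM of 54.7 in WT and 61.7 and 63.9 in the DF508 libraries.

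Zfp36 (gene ID 22695) encodes tristetraprolin, which binds AU-rich elements and recruits the deadenylation machinery. It was the most abundant of the 10 genes in each library by FPKM. It had 2432 counts in WT, 1214 in DF508 replicate 1 and 1370 in replicate 2, or 459, 232 and 261 CPM. WT stood far above both mutant libraries, with ratios of 0.505 (0.471 to 0.541) and 0.569 (0.532 to 0.608). The fitted fold was 1.92-fold lower (log2 fold change -0.94 ± 0.11 SE, edgeR adjusted p = 0.00831). Replicate 2 exceeded replicate 1 by 0.17 on the log2 scale, the opposite order to Dusp1.

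Zfp36l1 (gene ID 12192), its relative with the same kind of zinc fingers, had 1765, 1305 and 1361 counts, or 333, 249 and 259 CPM. Both DF508 libraries were below WT with ratios of 0.747 (0.695 to 0.803) and 0.779 (0.725 to 0.836), and they differed little from each other. The log2 fold change was -0.43 ± 0.098 (SE) and did not pass (edgeR adjusted p = 0.0873), except in edgeR's likelihood ratio test (adjusted p = 0.021).

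The family's other abundant member in these cells, Zfp36l2, was not below WT. It had 458 CPM in WT and 534 and 570 CPM in the DF508 libraries (log2 fold change 0.22 ± 0.098 SE, edgeR adjusted p = 0.419). By FPKM, Zfp36 stood at 261.71 and Zfp36l2 at 129.09 in WT. In DF508 replicates 1 and 2 Zfp36 had an FPKM of 132.08 and 148.86, and Zfp36l2 one of 150.28 and 160.4, so the order of this pair turned in each mutant library.

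**Figure D2:**
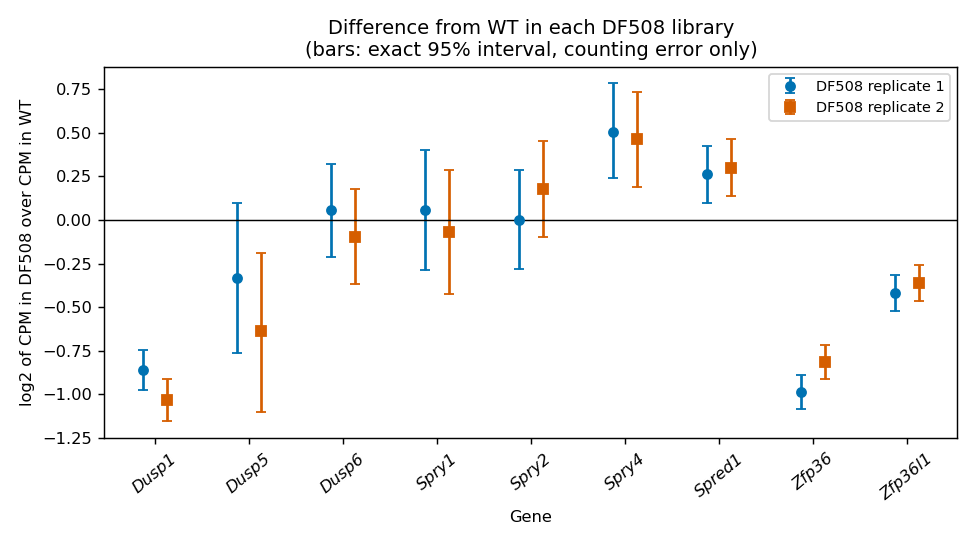
Log2 of the CPM in each DF508 library over the CPM in WT for the 9 genes tested, with exact 95% intervals as bars (counting error only; 1 WT library). Dusp1, Zfp36 and Zfp36l1 lie below 0 with their whole intervals in both libraries, Spry4 and Spred1 lie above 0 (Spry4 ratios of 1.42 and 1.38), and the intervals of Dusp6, Spry1 and Spry2 include 0.

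The calls on Dusp1 and Zfp36 rested on the fit. Their log2 fold changes ranged from -0.99 to -0.94 and from -0.95 to -0.9 over 11 other fits, but 5 of these fits did not call them, with adjusted p-values up to 0.662. These 5, which were edgeR with library totals or no filter and limma on FPKM, called no gene at all, with 1123 to 1615 genes at an unadjusted p under 0.05, against 1538 in the fit reported.

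In order of FPKM in the DF508 libraries, Zfp36 was highest, followed by Dusp1 (93.07 and 82.46) and Zfp36l1 (83.27 and 86.74), whose values overlap. Spred1 (20.39 and 21.42) and Spry2 (18.75 and 21.18) overlap as well, with Dusp6 (16.18 and 14.61) next. Dusp5 (14.12 and 11.42), Spry4 (11.47 and 11.09) and Spry1 (11.11 and 10.18) followed, Spry4 overlapping with both of its neighbours, and Dusp4 was lowest (0.63 and 0.47). In WT, Dusp5 had an FPKM of 17.79 and ranked above Spred1 and Dusp6, at 17.25 and 15.61, with no replicate to show whether those gaps exceed the spread.

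The promoters shown are those of the 4 genes below WT in both DF508 libraries. They were picked by these values, and only Dusp1 and Zfp36 of them passed the test. Immediate early induction is known to act through serum response elements, which contain the CArG box, and cAMP response elements. Any part of such motifs in the lower values was not tested. The sequences are RefSeq's on GRCm38.p6, 5′ to 3′ on the gene's strand, from 250 bases before the start site to 50 after it. Capitals mark a cAMP response element (TGACGTCA), a CArG box, an EGR motif (GCGGGGGCG), an ETS motif (CCGGAAG) or a TATA box (TATAAA), each searched on both strands. No 2 marked motifs overlapped. Dusp1 (chr17:26508423-26508722, minus strand), Zfp36 (chr7:28379179-28379478, minus strand), Dusp5 (chr19:53528895-53529194, plus strand) and Zfp36l1 (chr12:80112964-80113263, minus strand) read as follows.
Dusp1: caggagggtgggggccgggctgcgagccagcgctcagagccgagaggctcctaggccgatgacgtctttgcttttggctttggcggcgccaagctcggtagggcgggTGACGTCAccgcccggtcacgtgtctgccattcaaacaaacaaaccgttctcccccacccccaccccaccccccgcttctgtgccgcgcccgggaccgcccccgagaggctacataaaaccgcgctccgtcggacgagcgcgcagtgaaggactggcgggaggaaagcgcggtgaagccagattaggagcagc
Zfp36: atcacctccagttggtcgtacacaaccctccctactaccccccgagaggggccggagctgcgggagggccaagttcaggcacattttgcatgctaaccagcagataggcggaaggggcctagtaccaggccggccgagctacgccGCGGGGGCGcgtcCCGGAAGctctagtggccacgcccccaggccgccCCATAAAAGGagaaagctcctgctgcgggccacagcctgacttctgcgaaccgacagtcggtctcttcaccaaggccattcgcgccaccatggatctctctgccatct
Dusp5: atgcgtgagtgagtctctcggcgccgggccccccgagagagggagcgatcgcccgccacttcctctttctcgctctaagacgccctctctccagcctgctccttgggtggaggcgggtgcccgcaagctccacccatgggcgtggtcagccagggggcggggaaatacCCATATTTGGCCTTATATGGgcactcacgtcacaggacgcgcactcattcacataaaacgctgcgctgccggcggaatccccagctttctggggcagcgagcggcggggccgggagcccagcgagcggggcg
Zfp36l1: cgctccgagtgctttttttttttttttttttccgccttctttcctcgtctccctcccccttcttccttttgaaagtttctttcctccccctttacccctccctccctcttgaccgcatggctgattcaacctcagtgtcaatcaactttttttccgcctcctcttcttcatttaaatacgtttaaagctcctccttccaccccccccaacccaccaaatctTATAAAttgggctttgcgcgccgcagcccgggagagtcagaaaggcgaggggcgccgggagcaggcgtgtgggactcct

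The Dusp1 window held a cAMP response element at positions -143 to -136 from the start site, a motif found in 1.79% of all 32851 promoter windows. Zfp36 held a CArG box at -58 to -49, an EGR motif at -105 to -97 and an ETS motif at -92 to -86, found in 1.63%, 2.91% and 8.86% of windows. Dusp5 held 2 adjoining CArG boxes at -82 to -73 and -72 to -63, and Zfp36l1 a TATA box at -29 to -24 (13.6% of windows). The windows of Dusp6, Spry1, Spry2 and Spred1 held none of the 5 motifs, and the other 2 genes were not among the 8 matched. A match describes letters in this window and not a bound site.

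The 3′ untranslated regions were searched for TATTTAT, the core that Zfp36 proteins bind, in the GENCODE M21 transcripts matching the RefSeq transcripts of the tables. Dusp1 held 3 matches in 690 bases, Zfp36 3 in 774 bases and Zfp36l1 3 in 1835 bases. Among 5546 tested genes with a region of 500 to 2000 bases, 2.02% held 3 or more. Spry1 and Spry2 held 2 each in 1047 and 856 bases, while Dusp4, Dusp5 and Dusp6 held 0 in 1111, 1109 and 1189 bases. Spry4 held 4 in 3559 bases and Spred1 3 in 4330 bases, regions longer than that range. The longer core TTATTTATT was present in Dusp1 (2 matches), Zfp36 (1) and Zfp36l1 (1) and in 6.62% of the 5546 genes; the other 7 genes held 0. For each of the 3 genes a site of 30 bases follows, with TATTTAT in capitals, at bases 92 to 121, 571 to 600 and 1138 to 1167 after the stop codon.
Dusp1: ggagctggtcctTATTTATttaacaccccc
Zfp36: ccttTATTTATgacgacttTATTTATtgta
Zfp36l1: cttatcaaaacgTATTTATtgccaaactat

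The kinases that these proteins restrain were close to WT at the mRNA level. Of 22 genes from receptor adaptors through Ras and Raf to ERK, none passed (median log2 fold change -0.01, range -0.25 to 0.29). The adaptor Shc1, which shares reads with another gene and is therefore uncertain, had 308 CPM in WT and 307 and 313 CPM in DF508. Of 20 tested genes of the p38, JNK and ERK5 cascades none passed (median -0.01). The p38 activator Map2k3 had 75.5, 80.9 and 83.7 CPM, and Map3k7, which shares reads, 89.8, 91.6 and 80.6 CPM.

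Upstream, 1 of 13 tested receptor tyrosine kinases fell, Met, the receptor of hepatocyte growth factor. It had 106 CPM in WT and 61.2 and 70.1 CPM in DF508 (1.67-fold lower, edgeR adjusted p = 0.0269). Of the 13, 8 were negative and 5 positive (list median -0.15, range -0.74 to 1.43). The highest, Fgfr3, named after its values were seen, had 5.28, 12.2 and 17.2 CPM and did not pass (edgeR adjusted p = 0.0957). None of 13 tested growth factor ligands passed (median -0.07). Of these, Fgf7, which shares reads, had 109, 145 and 142 CPM and Ereg 96.8, 89.9 and 72.8 CPM.

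Other regulators of these pathways and of mRNA decay did not pass either. Of 6 other MAP kinase phosphatases 4 were tested and none passed; all 4 had a positive log2 fold change, with a median of 0.23. Dusp7 had 31, 33.8 and 34.7 CPM and Dusp16 15.3, 21.6 and 19.1 CPM. None of 10 tested further dual-specificity phosphatases passed (median 0.07), with Dusp11 at 108, 134 and 118 CPM and Dusp3, which shares reads, at 69.6, 50.4 and 45.9 CPM. None of 19 other Sprouty, Spred, receptor and Ras regulators, not all of them inhibitors, passed (median 0.03). Flrt2, a membrane partner of FGF receptors, had 186, 215 and 201 CPM, and Pebp1, an inhibitor of Raf, 156, 145 and 136 CPM. None of 11 other factors of mRNA decay and AU-rich element binding passed (median 0.08); the most abundant was Zfp36l2, then Cnot1, a scaffold of the deadenylase complex, with 191, 214 and 211 CPM.

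Among the transcripts downstream, of 15 ETS factors and ERK targets none fell and 1 rose, the ephrin receptor Epha4, which shares reads, from 44.2 CPM to 91.6 and 85 CPM (1.94-fold, edgeR adjusted p = 0.0112; list median 0). Of 23 immediate early genes 12 fell, none rose and 11 did not pass, 21 of them negative (list median -0.66). Jun, a partner in the AP-1 transcription factor, had 449, 237 and 164 CPM, and its partner Fosb had 1210, 723 and 600 CPM. The serum-induced genes Ier2 and Btg2 had 241, 144 and 132 CPM and 370, 229 and 197 CPM. These 4 were lower by 2.31-fold, 1.89-fold, 1.8-fold and 1.79-fold (edgeR adjusted p = 0.0193, 0.0112, 0.0111 and 0.0139). This list and the next were compiled with earlier results on these genes known, so they are not independent of them.

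Transcripts with AU-rich elements that are known targets of Zfp36 proteins were lower more often than higher. Of 16 tested, 7 fell, none rose and 9 did not pass, 11 of them negative (list median -0.69). The largest falls past the threshold were in the chemokines Cxcl5 (2.38-fold, sharing reads), Ccl2 (2.03-fold) and Cxcl1 (1.87-fold) and in Nfkbiz (1.85-fold), a nuclear regulator of NF-kB (edgeR adjusted p = 0.00225, 0.00587, 0.0298 and 0.00937). The cytokine Il6, named after its values were seen, had the lowest log2 fold change (-1.58). It did not pass (edgeR adjusted p = 0.547), with 12, 4 and 4 counts. Ccl2 had 589 CPM in WT and 314 and 284 CPM in DF508. The largest positive log2 fold changes of the list, neither past the threshold, were those of the cytokine Tnf (4.06, edgeR adjusted p = 0.302) and the chemokine Cxcl2 (3.34, edgeR adjusted p = 0.381), named here after their values were seen. Tnf had 0.189 CPM in WT, from 1 count, and 1.14 and 6.1 CPM in DF508 replicates 1 and 2. Cxcl2, which shares reads, had 0.189, 1.14 and 3.19 CPM, also from 1 count in WT, so both fitted fold changes depend on the prior count. The summed myeloid markers stood in the same order over the libraries, at 93.3, 148 and 687 CPM, and their part in these values was not tested. Ier3, one of the 7, also stands in the immediate early list. These calls, like those on Met, Epha4 and the immediate early genes, come from the fit reported, and 5 of the 11 others called no gene. Whether the remaining fits kept each of these calls was not tallied, and DESeq2's Wald test called 63 genes in all against 179.

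**Figure D3:**
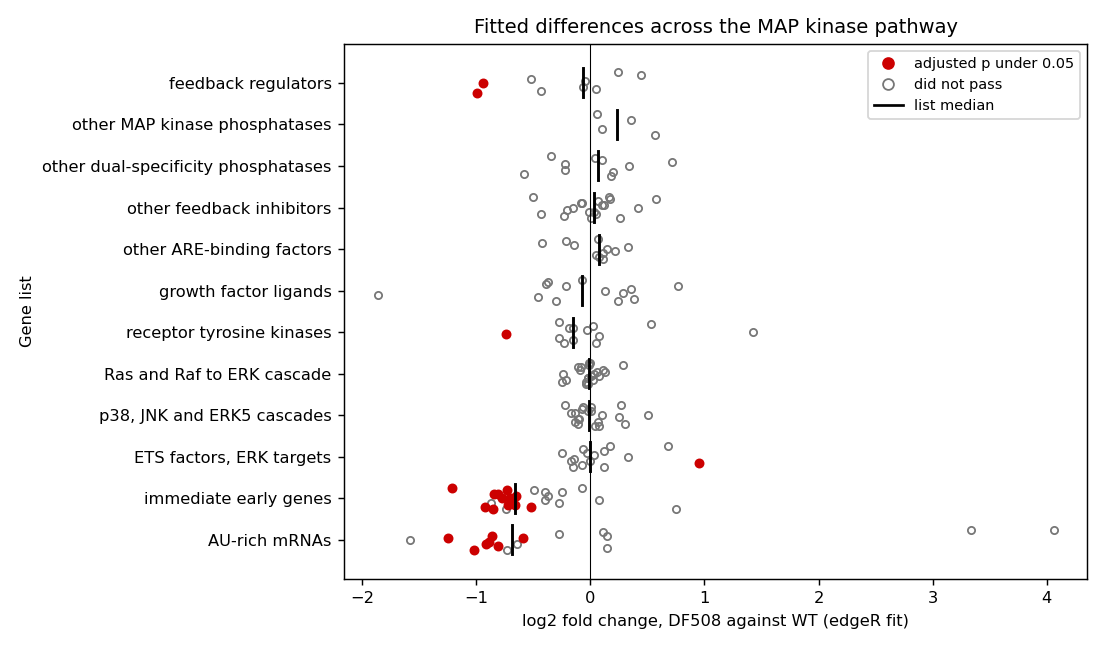
Fitted log2 fold change of DF508 against WT for each tested gene of the lists, 1 point a gene, filled where the adjusted p is under 0.05, with a black bar at the list median. The cascade lists centre on -0.01, the immediate early and AU-rich lists on -0.66 and -0.69, and the feedback regulators on -0.06, with Dusp1 and Zfp36 as the filled points at -0.99 and -0.94.

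The genes most like Dusp1 were sought among 3944 other genes averaging at least 50 CPM, by the distance between their pairs of log2 differences from WT over the 3 libraries. The 5 nearest were the chemokine Cxcl14 (-0.87 and -0.99), Ccl2 (-0.91 and -1.05), the cytokine signalling inhibitor Socs3 (-0.89 and -0.94), Fosb (-0.74 and -1.01) and the annexin Anxa8 (-0.71 and -0.96). Within a distance of 0.2 lay 7 genes, or 0.177%. The median pair of the 10 genes, 0.03 and -0.08, was near no change, and 43.3% of genes lay within the same distance of it. Its 5 nearest were Gpatch8, Dync1h1, Canx, Prdm2 and Slc29a3. With 3 libraries such likeness is a description.

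**Figure D4:**
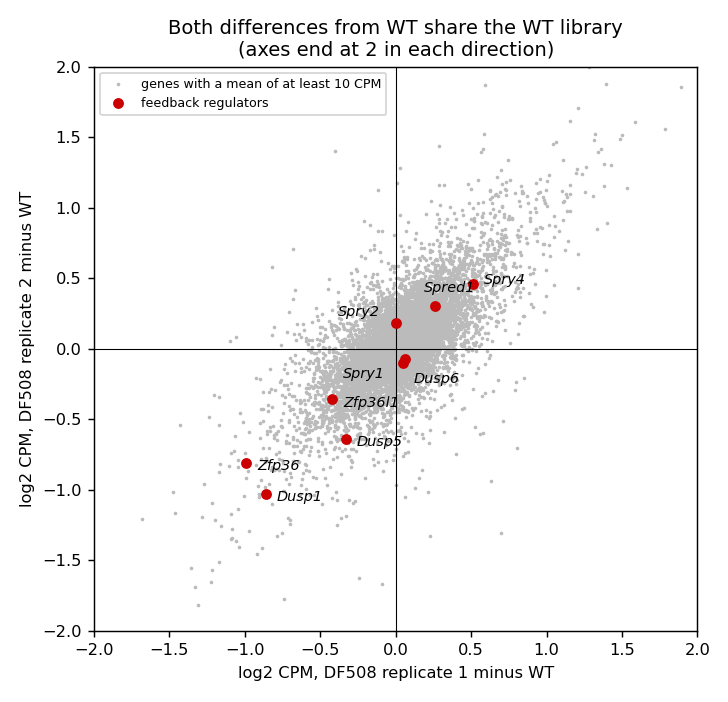
Log2 CPM difference from WT in DF508 replicate 1 (horizontal) and replicate 2 (vertical) for the 9 tested genes (red) over all genes averaging at least 10 CPM (grey). Both axes use the same WT library, which draws all points toward the diagonal; Dusp1 (-0.86 and -1.03) and Zfp36 (-0.99 and -0.81) lie at the lower left.

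The libraries totalled 5298326, 5241826 and 5246886 estimated counts, so 3 counts equal 0.566 to 0.572 CPM. For genes averaging 10 CPM or more the median size of the log2 difference was 0.161 and 0.165 between WT and the DF508 libraries and 0.126 within the DF508 pair. All 12 tendon fibroblast markers were listed, with Thbs4 at 18699 to 20748 CPM and the lineage factor Scx at 2.1 to 3.02 CPM; 1 rose, the proteoglycan Dcn (1.43-fold, edgeR adjusted p = 0.0417). Of 8 endothelial markers 4 were listed, and Pecam1 and Cdh5 were not; of 7 keratinocyte markers 3 were listed, and Krt5 and Krt14 were not. Of 6 skeletal muscle markers 2 were listed, Acta1 and Ckm, with a sum of 1.98 to 5.16 CPM, and the 5 Schwann cell markers summed to 117 to 150 CPM; no tested marker of these 4 lists passed. The 7 stem cell surface markers summed to 3130 to 3309 CPM, none passing.

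Markers of other cell types and of division differed between the libraries as well. The 12 myeloid markers summed to 93.3 CPM in WT and 148 and 687 CPM in DF508 replicates 1 and 2; all 11 tested were positive, none passed, and Aif1 was at 0 in WT. The 8 smooth muscle and pericyte markers summed to 641, 1532 and 1532 CPM, of which Acta2, which shares reads, had 411, 1072 and 1020 CPM. Of 7 tested, 4 rose: Cnn1, Acta2, Lmod1 and Tagln. Of the 3 that did not pass, Mcam had a negative log2 fold change (-0.67), and Cspg4 and Myh11 positive ones (0.54 and 1.07). Levels were low for Mcam (3.4, 3.62 and 0.762 CPM) and for Myh11, which shares reads (1.14, 2.68 and 2.3 CPM). Cspg4 had 24.5, 36.6 and 36.8 CPM. Rgs5 was not tested, at 0, 0.954 and 0.381 CPM. The 12 G2 and M phase genes summed to 443, 774 and 880 CPM (5 rose, among them Aurkb and Kif11, and none fell). The 23 immediate early genes summed to 8868, 6547 and 6043 CPM. The part of these in the feedback genes' values was not tested, and in bulk RNA fewer cells of a type and less RNA per cell cannot be told apart.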

How the data were processed

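Per the labels, poly(A) RNA was sequenced. Per the submitters' processing notes, Bowtie and RSEM were used with the mm9 genome, versions not given in the sources used here. Per the file headers, each library's table holds the expected count as deposited (an estimate of reads per gene, not normalized), the FPKM as deposited (scaled by the authors to length and library size) and a gene length. Genes not listed in a library count as 0. Strand use in counting: not given in the sources used here.

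Expected counts were rounded to whole numbers and fitted with edgeR 4.0.16 in R 4.3.3 (TMM, filterByExpr, genotype alone; 1 residual and 7.7 prior degrees of freedom). The SE is the log2 fold change over the square root of F. CPM are per library total. Ratios of counts carry exact 95% Clopper-Pearson intervals. Estimates not whole within 0.005 mark genes sharing reads. Symbols came from RefSeq GRCm38.p6 (16579 of 16621 IDs). Alternatives used DESeq2 1.42.0, limma 3.58.1 with log2(FPKM + 1) or log2(FPKM + 0.1), other scalings and filters, and each DF508 library left out. In 3 simulations of the same design the test recovered 35% of 2-fold changes and 74% of 4-fold changes. A gene that did not pass may therefore still differ. The simulated spread followed the fit's trend over genes, estimated from the DF508 pair, and genes of low level were not among those changed. Recovery against variation between cultures was not tested.

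The members, the 20 other lists and the tests were chosen with earlier results of these data known. All 10 members are named; of each other list, up to 4 genes past the threshold by fold change, or the 2 of highest level where none passed; and the 5 genes nearest in pattern to Dusp1 and to the members' median. Of the genes this rule names, 1 is not reported here. Intervals and floors cover counting error only.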

Additional observations from a re-analysis of the deposited data

How the results depend on the processing

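Of the 11 other fits, library totals alone in place of TMM, no filter on low counts, and limma-trend on log2(FPKM + 1), on log2(FPKM + 0.1) and on log2(FPKM + 1) with no filter called 0 of the feedback regulators and 0 genes in all, against 2 and 179. At an unadjusted p under 0.05 these 5 fits held 1253, 1123, 1145, 1159 and 1615 genes, and the main one 1538. The prior degrees of freedom were 2.6 with library totals, 1.8 without a filter and 7.7 in the main fit; the cause was not tested. DESeq2's Wald test called 63 genes and edgeR's likelihood ratio test 403, and Dusp1 and Zfp36 were among both. No log2 fold change of the 9 genes tested turned its sign in these 11 fits. Library totals moved the median of all genes to 0.05. DESeq2 gave no adjusted p for 9245 of the 12888 genes, so its 63 calls come from the rest. Among those without one were Dusp5, Dusp6, Spry1, Spry2 and Spry4. Without a filter Dusp4 had a log2 fold change of 2.63 and an adjusted p of 0.662.

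At least 1.5-fold below WT in both DF508 libraries were 2 of the 10 genes and 338 of all genes; at 1.2-fold the counts were 4 and 1187, and at 2-fold 0 and 90. With 1 DF508 library alone the count over all genes ranged from 800 to 806. FPKM or TMM factors changed these counts by less than 1.5 times. With 1 DF508 library left out no residual degree of freedom remains, so those log2 fold changes have no test: -0.91 and -1.08 for Dusp1, -1.03 and -0.86 for Zfp36, each with replicate 1 and with replicate 2 alone. No paired analysis was possible, because there was 1 WT library and the labels pair it with neither DF508 library. The single WT library limits every comparison, and the depth limits Dusp4 most.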
